A study of Sus scrofa with 8 samples.

Results

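The immediate early response genes FOS, FOSB, JUN, JUNB, ATF3, EGR1, KLF4, IER2, IER3 and DUSP1 were followed in limb muscle of pig embryos. They were chosen by symbol, with earlier results of these data known, and a row was found for all 10 among the 22516 genes of the count table. Shares over all tested genes are given beside their counts as a description, not as a test. The tissue came from wild-type (WT) embryos and from embryos labelled as knockout (KO) of MYF5, MYOD and MYF6, the transcription factors that commit cells to skeletal muscle. Each genotype was sampled on embryonic days 41 (E41) and 62 (E62), with 2 libraries in each of the 4 groups; no treatment is given in the labels. For the later stage the growth protocol has day 60 instead, and knockdown is the word of the series title. How the knockout was made, and whether it was a single line, is not given in the sources used here.

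Immediate early genes are transcribed within minutes of a growth factor, a mechanical load, a wound or another stress, without any need for new protein. Kinases of the ERK, JNK and p38 pathways act on factors already bound at their promoters, among them the serum response factor SRF with its ELK partners, and CREB. Their mRNAs are short-lived, and several of the products shut the response down again. In muscle they are known for their part in injury, stretch and stem cell activation, and taking and dissecting a tissue before lysis is itself a known stimulus.

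All 10 genes had a higher fitted level in the knockout at both stages, against 54.8% of the 17020 genes tested at E41 and 52.8% at E62. At E41 5 of the 10 rose past an adjusted p of 0.05 (JUN, JUNB, IER2, IER3 and KLF4) and 0 fell, where 18.5% of all tested genes were called higher, 20.8% lower and so 39.2% in either direction. At E62 6 of the 10 rose (FOSB, JUN, EGR1, IER2, IER3 and KLF4) and 0 fell, against 21% called higher, 26.2% lower and 47.2% in either direction. JUN, IER2, IER3 and KLF4 were called at both stages, and FOS, ATF3 and DUSP1 at neither. The median log2 change was 1.68 at E41 and 1.35 at E62, beside 0.09 and 0.06 over all tested genes. The lowest knockout library lay above the highest wild-type library for 9 of the 10 at E41 and 9 of the 10 at E62, which was so for 40.1% of all tested genes at each stage. The reverse held for 0 of the 10 and for 33.3% of all tested genes at E41 and 37.3% at E62. With either wild-type library or knockout replicate 2 left out, fewer of the 10, and fewer of all tested genes, were called at E41. DESeq2 called 9 of the 10 at each stage, and 40.2% of all tested genes at E41 and 48.5% at E62.

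Levels are counts scaled to a common library total with TMM factors (CPM), and changes are log2 fold changes of knockout over wild type with their standard error, 2 libraries per group, tested by edgeR with Benjamini-Hochberg adjustment over all tested genes. CPM are not corrected for transcript length, so levels are compared between libraries and not between genes. The titles call the 2 libraries of each group biological replicates, and the library names of the knockout at E62 give separate embryos. For the other groups the embryo behind a library is not spelled out, and the p-values rest on the spread among the libraries sequenced. Total counts ran from 23402052 to 60539245 per library. The library names of each group carry a number of their own, and those of wild-type E41 a limb code of their own. Litter, harvest and preparation therefore cannot be told apart from genotype and stage. MYF5 and MYF6 had 0 counts in all 4 knockout libraries, and MYOD1 kept 20 to 88 counts there against 1503 to 5715 in wild type. The muscle the label names was nearly absent from the knockout tissue by its transcripts: 36 muscle markers summed to 88.8 to 101 CPM there and to 39185 to 89336 in wild type. In such bulk tissue fewer cells of a type and less RNA per cell cannot be told apart. Scaling by library size alone moved the median change of all genes up by 0.29 at E41 and 0.30 at E62; all 10 genes were higher in the knockout under every scaling tried.

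**Figure D1:**
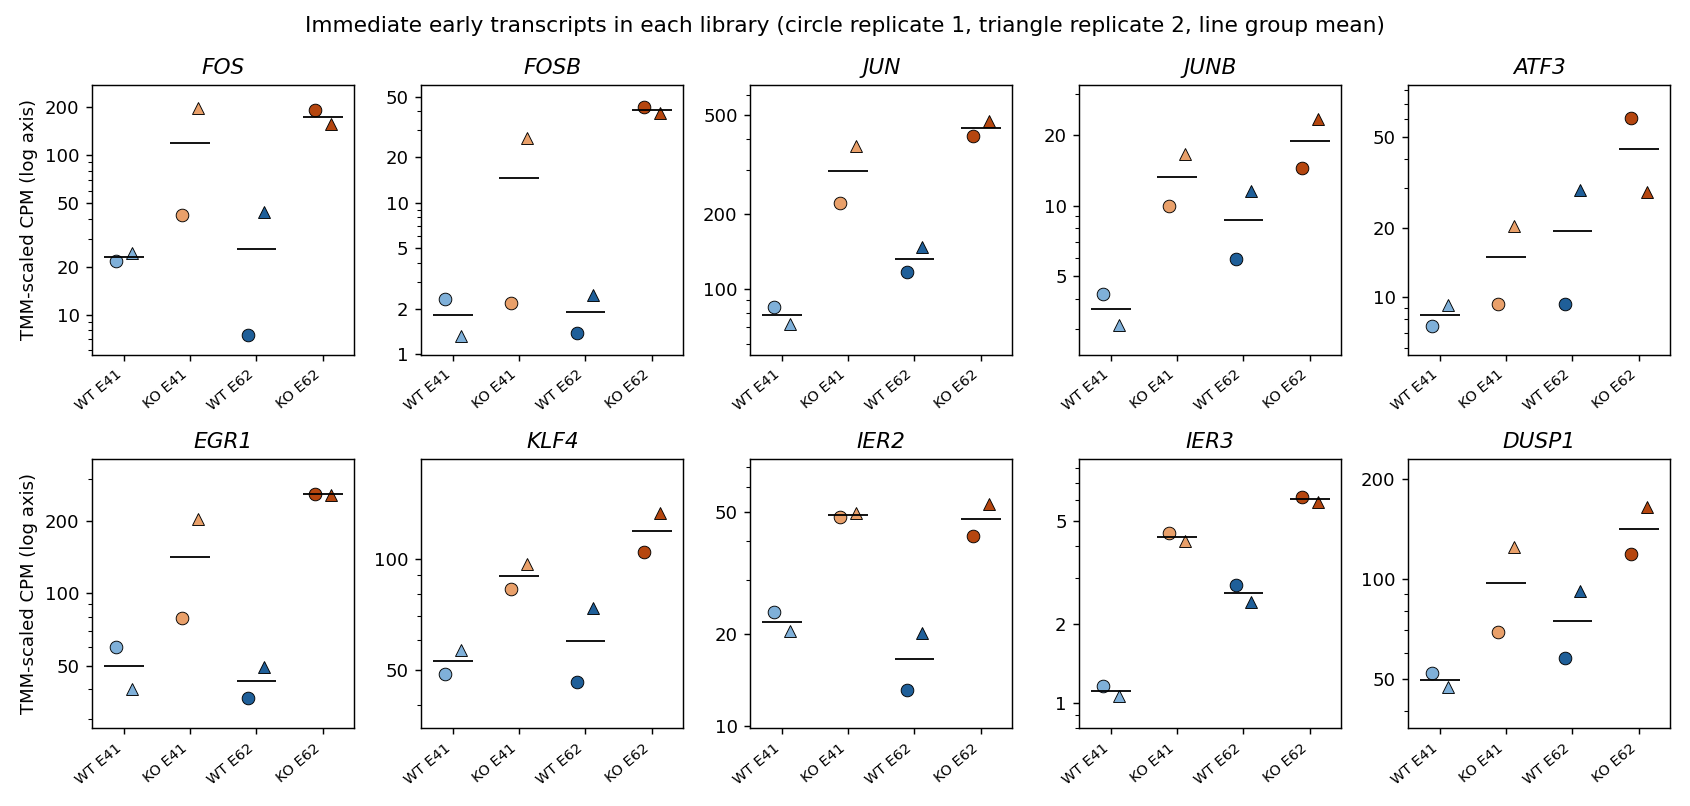
TMM-scaled CPM (log axis, one scale per panel) of the 10 genes in each of the 8 libraries, with WT for wild type and KO for knockout. Circles are replicate 1, triangles replicate 2 and lines the group means. FOS and FOSB show the wide gap between the knockout E41 replicates, 42.1 and 197 CPM for FOS, while IER2 and IER3 replicates there lie close together.

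FOS, JUN and their relatives are basic leucine zipper (bZIP) proteins that pair to form the transcription factor AP-1. A FOS protein must pair with a JUN protein to bind DNA, whereas JUN can also pair with itself. JUN (ENSSSCG00000031912, chromosome 6, 153686425 to 153687635 in the RefSeq annotation of Sscrofa11.1) stood at 84.2 and 72.4 CPM in wild-type E41 replicates 1 and 2 and at 220 and 375 in the knockout. The E62 levels were 117 and 147 CPM in wild type against 413 and 471 in the knockout. Every knockout library lay above every wild-type library, whichever the stage. JUN rose 3.80-fold at E41 (log2 1.93 ± 0.26, adjusted p = 0.0016) and 3.34-fold at E62 (1.74 ± 0.26, adjusted p = 0.0016). It was called in every alternative analysis run at either stage, with the highest adjusted p at 0.019.

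JUNB (ENSSSCG00000013735, chromosome 2, 66214086 to 66219435), a JUN relative that is a weaker activator and often counters JUN, stood at 4.20 and 3.10 CPM in wild-type E41 and at 9.99 and 16.5 in the knockout. Wild-type E62 libraries had 5.92 and 11.5 CPM and the knockout ones 14.4 and 23.3. The groups did not overlap at either stage, though the lowest knockout library at E62 was only 1.25-fold above the highest wild-type library. JUNB rose 3.64-fold at E41 (1.86 ± 0.44, adjusted p = 0.015), and its change of 1.11 ± 0.41 at E62 did not pass (adjusted p = 0.062). That E62 change was called in 5 of 13 alternatives, among them DESeq2 (adjusted p = 0.0087), library size alone (0.023), and the fits without wild-type replicate 2 (0.032) and knockout replicate 1 (0.045). The E41 call was lost without wild-type replicate 1, without wild-type replicate 2, without knockout replicate 2 and with limma-voom (adjusted p = 0.058, 0.10, 0.069 and 0.065).

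FOS (ENSSSCG00000002383, chromosome 7, 98449508 to 98451971), the partner of JUN that gives AP-1 its strongest transient form, stood at 21.7 and 24.5 CPM in wild-type E41 and at 42.1 and 197 in the knockout. The E62 levels were 7.49 and 44.2 CPM in wild type and 191 and 156 in the knockout. Its knockout libraries lay above the wild-type libraries at both stages, but replicates of the same group differed 4.68-fold in knockout E41 and 5.91-fold in wild-type E62. The log2 change was 2.37 ± 1.10 at E41 (adjusted p = 0.16) and 2.75 ± 1.10 at E62 (adjusted p = 0.10). Neither passed. DESeq2 gave adjusted p = 0.042 and 0.012, and limma-voom 0.024 at E62.

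FOSB (ENSSSCG00000031616, chromosome 6, 51836780 to 51844531), a FOS relative known for accumulating under repeated stimuli, stood at 2.32 and 1.33 CPM in wild-type E41 and at 2.20 and 26.8 in the knockout. At E62 it stood at 1.38 and 2.44 CPM in wild type and at 42.7 and 39.0 in the knockout. At E41 the first knockout library lay within the wild-type range and the second was 14.7-fold above the wild-type mean; at E62 the lower knockout library lay 15.9-fold above the highest wild-type library. The change of 3.00 ± 1.24 at E41 did not pass (adjusted p = 0.12), and was 0.28 without knockout replicate 2 (adjusted p = 0.67) and 3.88 without replicate 1. FOSB rose 21.3-fold at E62 (4.41 ± 1.24, adjusted p = 0.037). That call was lost with no low-count filter (adjusted p = 0.058) and without each of the 4 libraries in turn (adjusted p from 0.079 to 0.19), while the log2 change stayed between 4.06 and 4.88.

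ATF3 (ENSSSCG00000015595, chromosome 9, 130772259 to 130829678), a bZIP repressor induced by cell stress, stood at 7.49 and 9.25 CPM in wild-type E41 and at 9.39 and 20.5 in the knockout. At the later stage wild type had 9.32 and 29.5 CPM and the knockout 60.4 and 28.7. The E41 groups nearly touched, with the lowest knockout library 1.02-fold above the highest wild-type library, and the E62 groups overlapped. The log2 changes of 0.83 ± 0.72 at E41 and 1.20 ± 0.69 at E62 did not pass (adjusted p = 0.41 and 0.21), nor did they in any alternative.

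EGR1 and KLF4 are zinc finger transcription factors. EGR1 (ENSSSCG00000014336, chromosome 2, 140440829 to 140445302), which follows ERK signalling closely and has a part in tendon and matrix gene expression, stood at 59.8 and 39.9 CPM in wild-type E41 and at 79.1 and 204 in the knockout. Wild-type E62 libraries had 36.6 and 49.5 CPM and the knockout ones 260 and 257. The groups did not overlap at either stage, and the 2 knockout libraries at E62 were nearly equal. EGR1 rose 5.99-fold at E62 (2.58 ± 0.49, adjusted p = 0.0086), a call that was lost without wild-type replicate 1 (adjusted p = 0.069). Its change of 1.51 ± 0.48 at E41 missed the threshold (adjusted p = 0.055) and was 0.67 without knockout replicate 2. It was called in 6 of 14 alternatives, among them DESeq2, limma-voom and library size alone (adjusted p = 0.012, 0.042 and 0.026), and was 2.04 without knockout replicate 1 (adjusted p = 0.0046).

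KLF4 (ENSSSCG00000005437, chromosome 1, 248604817 to 248609574), which restrains proliferation and is prominent in skin and vessel walls, stood at 48.7 and 56.6 CPM in wild-type E41 and at 83.0 and 96.6 in the knockout. The E62 levels were 46.2 and 73.5 CPM in wild type and 104 and 133 in the knockout. Both stages showed no overlap. KLF4 rose 1.71-fold at E41 (0.77 ± 0.23, adjusted p = 0.037) and 1.98-fold at E62 (0.99 ± 0.23, adjusted p = 0.012), the E41 change being the smallest of the 10. The E41 call was lost without each of the 4 libraries in turn (adjusted p from 0.079 to 0.16), and the E62 call without knockout replicate 2 (adjusted p = 0.054).

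IER2 and IER3 are small early response proteins, IER2 a nuclear regulator of transcription and IER3 a modulator of cell survival and ERK signalling. IER2 (ENSSSCG00000013753, chromosome 2, 65909638 to 65912491) stood at 23.5 and 20.4 CPM in wild-type E41 and at 48.0 and 49.3 in the knockout. At the later stage wild type had 13.1 and 20.1 CPM and the knockout 41.8 and 53.0. The lowest knockout library was 2.05-fold above the highest wild-type library at E41 and 2.08-fold at E62. IER2 rose 2.22-fold at E41 (1.15 ± 0.21, adjusted p = 0.0045) and 2.85-fold at E62 (1.51 ± 0.21, adjusted p = 0.00098).

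IER3 (ENSSSCG00000027607, chromosome 7, 23265560 to 23266905) was scarce, at 1.16 and 1.06 CPM in wild-type E41 (24 counts in each library) and at 4.48 and 4.17 in the knockout. Wild-type E62 libraries had 2.83 and 2.44 CPM and the knockout ones 6.18 and 5.91. The 4 groups did not overlap with each other, and the ratio of replicate 2 to replicate 1 ran from 0.865 to 0.956. IER3 rose 3.89-fold at E41 (1.96 ± 0.24, adjusted p = 0.00072) and 2.29-fold at E62 (1.20 ± 0.22, adjusted p = 0.0033). IER2 and IER3 kept their calls at both stages in every alternative run.

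DUSP1 (ENSSSCG00000016991, chromosome 16, 51457924 to 51461095), the phosphatase that switches off p38, JNK and ERK, stood at 52.0 and 47.3 CPM in wild-type E41 and at 69.3 and 124 in the knockout. The E62 levels were 57.7 and 91.7 CPM in wild type and 118 and 164 in the knockout. The groups did not overlap at either stage. Changes of 0.96 ± 0.35 at E41 and 0.92 ± 0.35 at E62 did not pass (adjusted p = 0.077 and 0.075). They were called in 5 of 14 alternatives at E41 and 4 of 13 at E62, among them DESeq2 (adjusted p = 0.0037 and 0.0030) and edgeR with library size alone (0.028 and 0.025). Without knockout replicate 1 the E41 change was 1.32 (adjusted p = 0.029).

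**Figure D2:**
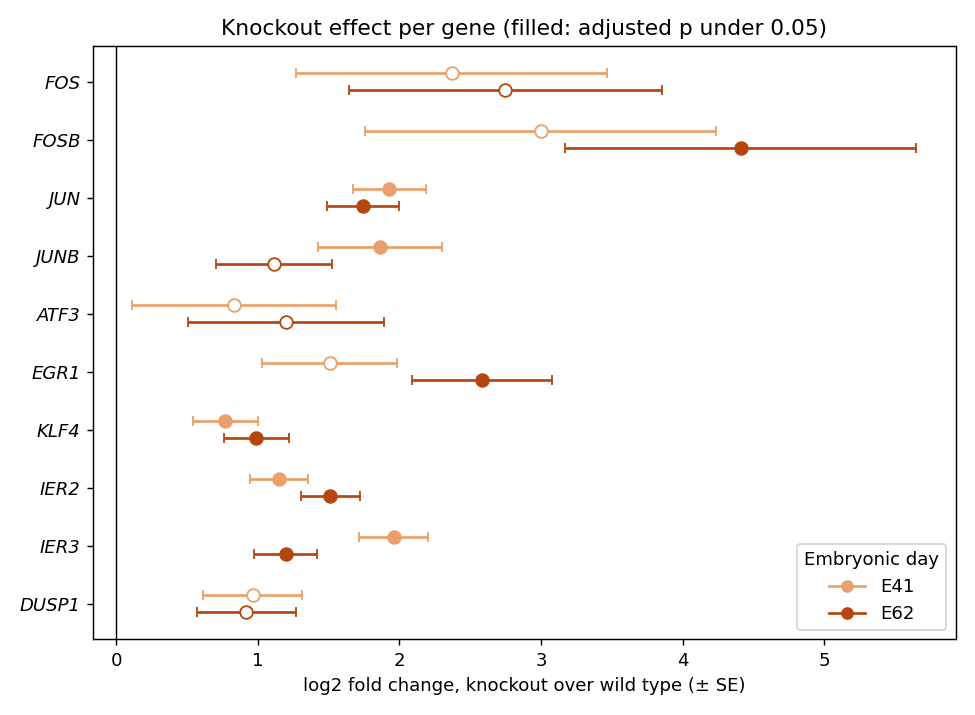
Log2 fold change of knockout over wild type for each gene at E41 (light) and E62 (dark), with bars of 1 standard error from edgeR. Filled points passed an adjusted p of 0.05. All 20 points lie above 0, and the bars of FOS and FOSB, at 1.10 to 1.24, are far wider than those of IER2, at 0.21.

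The genes differed in how much replicates of one group spread. The biological coefficient of variation that edgeR fitted to each gene was 0.16 in IER2, 0.18 in KLF4, 0.19 in JUN and 0.19 in IER3, near the median of 0.15 over all tested genes. It was 0.47 in ATF3, 0.68 in FOS and 0.70 in FOSB, above the 90th percentile of all genes (0.42). FOS and ATF3, which were called at neither stage, are among these 3. FOS and FOSB had the largest fitted changes of the 10 at both stages and the widest spread.

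The spread was shared between genes within a group. In knockout E41 9 of the 10 genes were higher in replicate 2 than in replicate 1, with a median difference of 0.80 in log2(CPM + 0.5), against -0.01 over all tested genes. For 7 of the 10 the difference was beyond the 95th percentile of its size over all genes (0.57). In wild-type E62 9 of the 10 were higher in replicate 2, with a median of 0.65, and 3 were beyond the 95th percentile (0.71). IER3 was the 1 gene that was not higher in replicate 2 in either group. In wild-type E41 and knockout E62 the genes divided, with 3 and 5 of the 10 higher in replicate 2, and 0 and 1 beyond the 95th percentile (0.89 and 0.90).

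**Figure D3:**
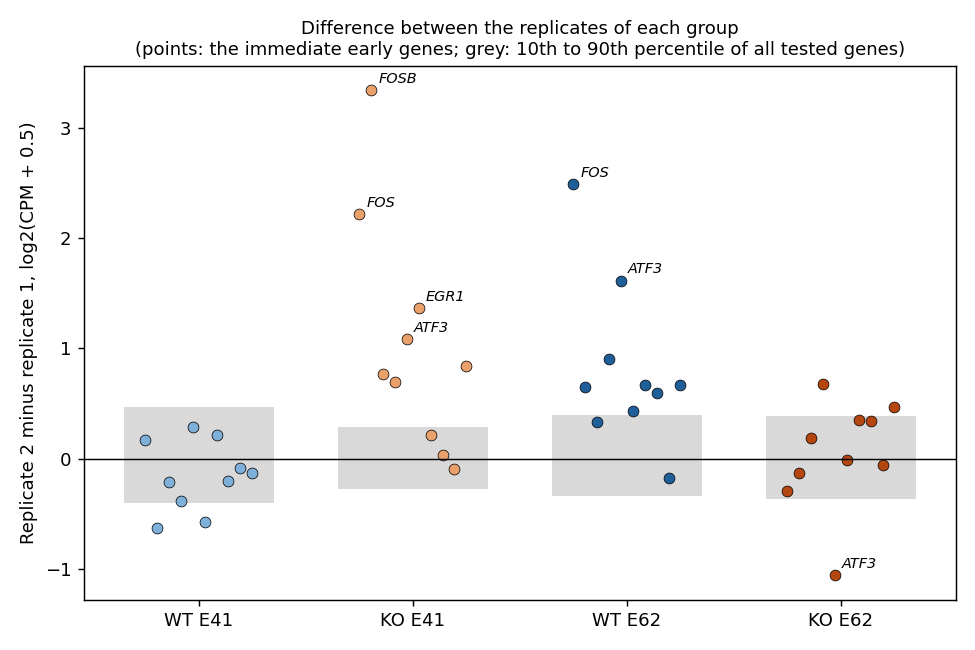
Replicate 2 minus replicate 1 in log2(CPM + 0.5) for the 10 genes in each group, with grey bands from the 10th to the 90th percentile of all tested genes. In knockout E41 and wild-type E62 most points lie above the band, with FOSB farthest out in the first and FOS in the second, whereas in the other 2 groups most lie inside it. Names are given where the difference exceeds 1.

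Markers of other tissues also differed between these libraries, and their part in the results was not tested. Knockout E41 replicate 2, the one with the higher early genes, held 4334 CPM of 11 cartilage and bone markers against 996 in replicate 1, with the cartilage proteoglycan ACAN at 201 against 6.5 CPM. Its 8 red blood cell markers summed to 9491 CPM against 4546, of which HBB alone gave 9234 and 4429. Cartilage and bone markers did not differ in this way between the wild-type E62 replicates (297 and 318 CPM), whose early genes also differed. Wild-type E62 replicate 2, the higher of that pair, had a higher fibroblast marker sum (46969 against 26681 CPM over 13 genes). Collagens made up most of that sum, with COL3A1 at 24103 against 12700 CPM. Outside the collagens LUM stood at 1733 against 844 CPM, DPT at 284 against 134 and OSR1 at 22.1 against 10.8. TWIST2 was 3.89 against 0.84 CPM, DCN 2457 against 2027, PRRX1 70.5 against 60.0, MEOX1 26.6 against 23.8 and PDGFRA 215 against 211. OSR2 (18.2 against 18.6) and TCF21 (0.03 against 0.24) were lower. The red blood cell marker sum was lower in that replicate (1180 against 4240 CPM), nearly all of it HBB (1138 against 4109).

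Between genotypes, fibroblast markers moved with the early genes: 7 of 13 were higher and 1 lower in the knockout at E41, and 9 higher and 1 lower at E62. At E41 they summed to 23307 to 39019 CPM in wild type and 50622 to 54689 in the knockout, and at E62 to 26681 to 46969 and 86876 to 93013. Collagens made up most of each of these sums. Of 11 endothelial markers 4 were higher at E41 and 5 at E62, and 0 lower, with sums of 725 to 886 CPM in wild type and 1045 to 1164 in the knockout at E41, and of 948 to 964 and 1086 to 1751 at E62. Of 11 macrophage markers 3 were higher and 1 lower at E41 and all 11 higher at E62, with sums of 127 to 258, 259 to 263, 172 to 199 and 760 to 799 CPM in the same order. None of these markers was at 0 in any group. The 8 red blood cell markers summed to 2706 to 3819 CPM in wild type and 4546 to 9491 in the knockout at E41, and to 1180 to 4240 and 4443 to 8223 at E62, with KLF1 at 0 in wild-type E41. HBB made up nearly all of each sum, at 2624 to 3684 CPM in wild type and 4429 to 9234 in the knockout at E41. Of the 7 tested, 1 was higher at E41 and 0 at E62, and 0 were lower at either stage. Summed cartilage and bone markers overlapped at E41 (730 to 1546 against 996 to 4334 CPM) and did not at E62 (297 to 318 against 1016 to 2076). Of the 11, 1 was higher and 0 lower at E41, and 3 higher and 1 lower at E62. The E62 sums were mostly SPP1 (222 and 260 CPM in wild type, 1952 and 957 in the knockout). COL2A1 overlapped at E62 (44.0 and 40.3 against 71.3 and 23.6). More smooth muscle and pericyte markers fell than rose: of 10, 1 was higher and 5 lower at E41, and 2 higher and 5 lower at E62. Among those 10, ACTA2 stood at 972 and 831 CPM in wild-type E41 and at 66.5 and 66.7 in the knockout. CNN1 stood at 49.2 and 41.3 CPM in wild-type E41 and at 3.29 and 3.91 in the knockout. PDGFRB went the other way, from 105 and 81.0 CPM in wild-type E41 to 266 and 260 in the knockout. Of 8 nerve and glia markers 2 were higher and 1 lower at E41, and 3 higher and 1 (ERBB3) lower at E62. Over all tested genes 18.5% were called higher and 20.8% lower at E41, and 21% and 26.2% at E62. The part of these marker lists in the higher early genes was not tested.

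KLF4 is readily expressed in skin, and 10 keratinocyte markers varied widely. At E41 they summed to 826 to 1394 CPM in wild type and 994 to 1728 in the knockout, and at E62 to 20.6 to 21.1 in wild type. In the knockout at E62 they summed to 1336 CPM in replicate 1 and 54.9 in replicate 2. The 10 early genes summed to 1252 CPM in the first of these and 1331 in the second. KLF4 was 104 CPM in the first and 133 in the second, and ATF3 was 60.4 and 28.7. The part of skin transcripts in the results was not tested.

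**Figure D4:**
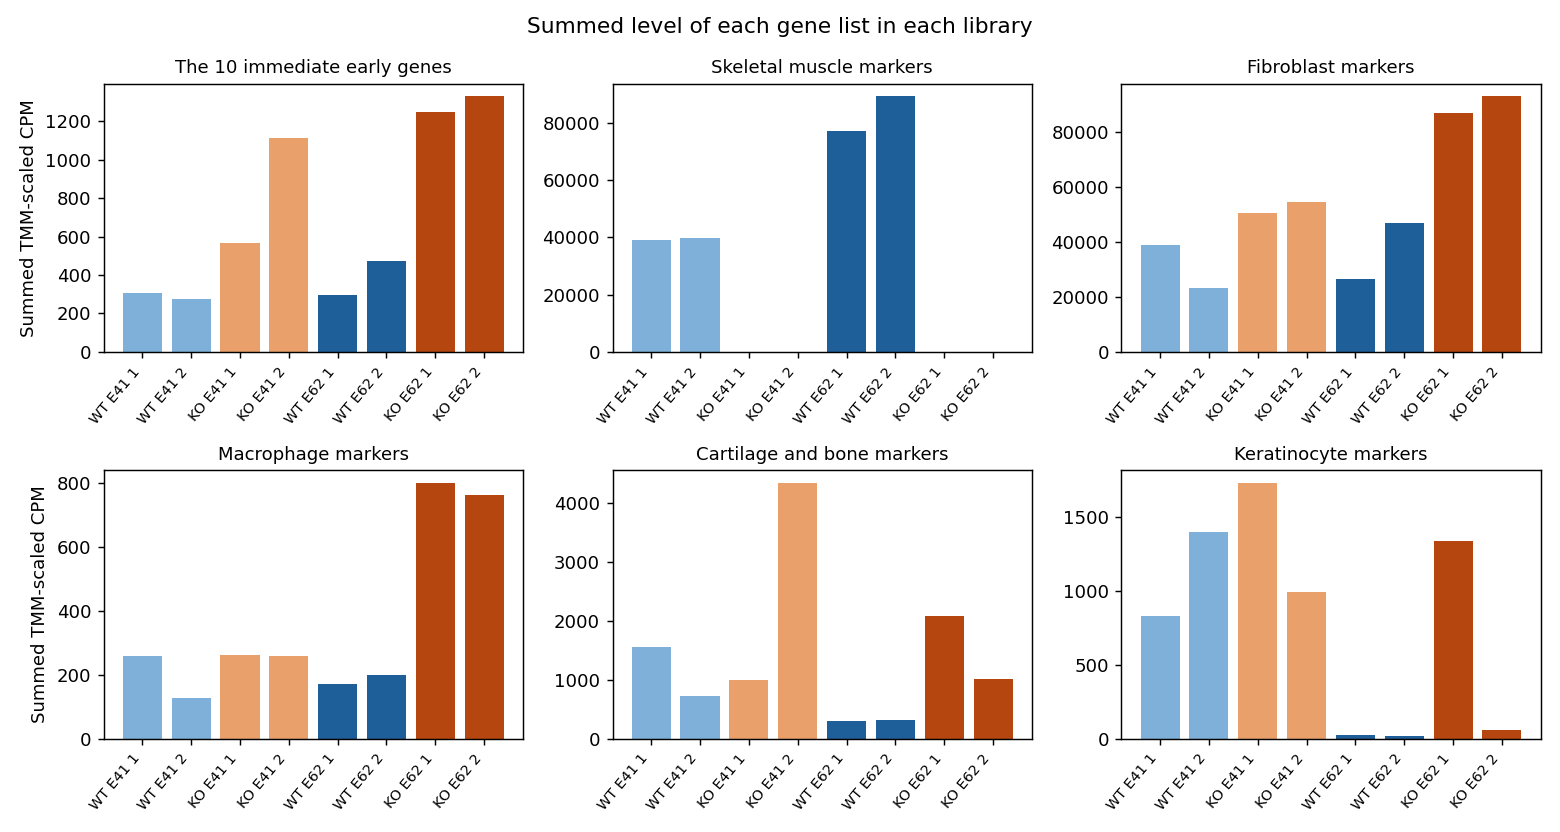
Summed TMM-scaled CPM of the 10 early genes and of 5 marker lists in each library, with bars from 0 and replicates 1 and 2 side by side. The early genes sum to 276 to 472 CPM in the 4 wild-type libraries and to 568 to 1331 in the 4 knockout libraries. Cartilage and bone markers peak in knockout E41 replicate 2, keratinocyte markers are near 0 in both wild-type E62 libraries and low in replicate 2 of the knockout at that stage, and muscle markers are too low to see in the knockout.

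Ordered by group mean, knockout E62 had the highest level for 9 of the 10 genes, the exception being IER2, where knockout E41 (48.7 ± 0.89 CPM, SD, n = 2) and knockout E62 (47.4 ± 7.97) overlapped. Knockout E41 came next for 8 of the 10, and wild-type E41 was lowest for 8 of the 10. For JUN and IER3 no neighbours in the order overlapped. For FOS none of the neighbours was separate. FOS, FOSB, EGR1 and KLF4 in wild type did not differ between the stages beyond their spread.

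The comparison of stages within a genotype asks whether the early genes change as the limb matures, and it shares libraries with the comparisons of genotype. In wild type 1 of the 10 rose from E41 to E62, IER3 (1.25 ± 0.24, adjusted p = 0.0058), and 0 fell, where 19.8% of all tested genes rose and 20% fell (39.8% in either direction). Libraries of the stages did not overlap for 5 genes higher at E62 and 1 lower, against 36.5% and 34.3% of all tested genes. JUN (0.76 ± 0.25, adjusted p = 0.051) and JUNB (1.26 ± 0.44, adjusted p = 0.058) lay just outside the threshold and were called by DESeq2 (adjusted p = 0.0040 and 0.0067). The values of FOS, FOSB, EGR1 and KLF4 were 0.16 ± 1.07, 0.08 ± 1.31, -0.21 ± 0.47 and 0.19 ± 0.23 and turned direction in at least 1 alternative each. In the knockout edgeR called 0 of the 10, and 0 at an unadjusted p under 0.05, where 12.1% of all tested genes rose and 18% fell (30.1% in either direction). Libraries did not overlap for 6 genes higher at E62 and 0 lower, against 34.7% and 40.6% of all tested genes. DESeq2 called 1 and limma-voom 2 of them. The fitted changes there ran from -0.04 for IER2 to 1.58 ± 0.70 for ATF3 (adjusted p = 0.14). Without knockout E41 replicate 2, FOSB (4.21), JUN (0.99) and EGR1 (1.70) were called.

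Whether the knockout effect itself differed between the stages was tested as the difference of the log2 changes, E62 minus E41. None of the 10 passed in edgeR, DESeq2 or limma-voom, and 1 (IER3) had an unadjusted p under 0.05, against 26.8% of all tested genes called in either direction (11.2% higher and 15.5% lower). The differences ran from -0.76 ± 0.32 in IER3 (adjusted p = 0.12) to 1.41 ± 1.68 in FOSB (adjusted p = 0.58). EGR1 differed by 1.08 ± 0.66 (adjusted p = 0.28) and JUN by -0.19 ± 0.35 (adjusted p = 0.73). For FOS the difference of 0.38 ± 1.48 leaves a wide range of sizes possible. Without knockout E41 replicate 2 the differences of FOSB (4.13) and EGR1 (1.91) were called (adjusted p = 0.0076 and 0.022).

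Across the 8 libraries the 10 genes varied together, which in part restates the genotype difference they share. Pearson's r of log2(CPM + 0.5) between pairs had a median of 0.86 over 45 pairs and ran from 0.44 (ATF3 with IER2) to 0.98 (FOSB with EGR1). Against the mean of the other 9, JUN had the highest r (0.97) and ATF3 the lowest (0.78). The genes outside the 10 with the most similar pattern were AKAP3 (r = 0.99), a kinase-anchoring protein, the kinase NEK8 (0.98), FIBIN (0.98), the matrix protease ADAMTS10 (0.97), the lipid flippase ATP8B2 (0.97) and the cilium transport gene IFT74 (0.97). They were chosen for this likeness, over 8 libraries that share 4 groups, and 225 of 11900 candidate genes had r over 0.9.

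Other immediate early genes were taken from a list of 34, of which 32 had a row and were tested. At E41 16 of the 32 were higher and 0 lower, against 18.5% and 20.8% of all tested genes, with a median log2 change of 0.68. At E62 13 were higher and 6 lower, against 21% and 26.2% of all tested genes, with a median of 0.37. The nuclear receptors NR4A1 (1.82 ± 0.45 and 1.97 ± 0.42) and NR4A3 (2.22 ± 0.41 and 2.05 ± 0.39), the FOS relative FOSL2 (1.16 ± 0.25 and 1.32 ± 0.25), the mRNA decay factor ZFP36 (1.87 ± 0.52 and 1.65 ± 0.50) and the nuclear factor CSRNP1 (1.45 ± 0.23 and 1.14 ± 0.22) were higher at both stages. EGR2 and EGR3, relatives of EGR1, rose at E62 (2.53 ± 0.52 and 2.05 ± 0.32), with changes of 0.15 ± 0.51 and 0.58 ± 0.32 at E41. The difference between stages passed for both (2.39 ± 0.72, adjusted p = 0.048, and 1.47 ± 0.45, adjusted p = 0.045). NFKBIZ, an inducible regulator of NF-kappa B, had 1 count at E41 over both wild-type libraries and 85 over both knockout libraries, a ratio of 39.8 (95% interval 6.95 to 1590, exact, counting error only), and rose at E62 (3.52 ± 0.43).

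Other members of that list were lower in the knockout at the later stage. The clock gene PER1 (0.93 ± 0.08), the small GTPase RHOB (0.73 ± 0.11) and IER5L (1.76 ± 0.30), a relative of IER2, were higher at E41 and lower at E62 (-0.27 ± 0.08, -0.69 ± 0.11 and -1.12 ± 0.29). With library size alone PER1 at E62 turned to 0.04. Their differences between stages passed (-1.20 ± 0.11, -1.42 ± 0.16 and -2.88 ± 0.42; adjusted p = 0.00093, 0.0014 and 0.0032). KLF2, known from endothelium under flow, rose at E41 (1.59 ± 0.20) and stood at 0.01 ± 0.19 at E62. MYC (-0.82 ± 0.13) and the pseudokinase TRIB1 (-1.31 ± 0.15) fell at E62. Over the whole list of 32 tested the difference between stages was positive for 2 called genes and negative for 9. The shares over all tested genes were 11.2% and 15.5%.

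The kinases and factors upstream of the early genes were taken from a list of 21, of which 20 had a row. Of these 20, 3 were higher and 3 lower at E41, with a median of 0.05, and 3 were higher and 10 lower at E62, with a median of -0.34. With library size alone the counts were 8 higher and 2 lower at E41, and 5 and 5 at E62. Of all tested genes, with TMM scaling, 18.5% were called higher and 20.8% lower at E41, and 21% and 26.2% at E62. With library size alone, 7850 of the 17020 tested genes were called at E41, 73.6% of those higher. At E62 that scaling called 8873, 69.4% of those higher. SRF stood at 27.9 and 30.7 CPM in wild-type E41 and at 27.0 and 24.4 in the knockout (-0.19 ± 0.10, adjusted p = 0.16). At E62 SRF had 61.95 and 58.8 CPM in wild type and 22.1 and 21.8 in the knockout and fell by 1.46 ± 0.10 (adjusted p = 2.0e-05). MAP2K1, the kinase that activates ERK, fell at both stages (-2.22 ± 0.17 and -2.37 ± 0.17), and MAPK9, which encodes a JNK, fell as well (-0.83 ± 0.11 and -0.74 ± 0.10). The SRF partner ELK3 rose at both (0.69 ± 0.13 and 0.38 ± 0.13), while ELK4 rose at E41 (0.72 ± 0.13) and stood at -0.13 ± 0.13 at E62.

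Of 9 feedback inhibitors of ERK signalling, 2 were higher and 4 lower at each stage, with medians of -0.41 and -0.47. The shares over all tested genes were 18.5% higher and 20.8% lower at E41, and 21% and 26.2% at E62. SPRY4 fell at both (-1.29 ± 0.11 and -1.57 ± 0.11), as did SPRY2 (-0.91 ± 0.16 and -1.02 ± 0.16) and SPRED2 (-0.29 ± 0.08 and -0.86 ± 0.08), whose E41 value was 0.0012 with library size alone. DUSP6, the phosphatase of cytoplasmic ERK, fell at E41 (-0.92 ± 0.12) and stood at -0.20 ± 0.12 at E62, and DUSP7 rose at both (1.04 ± 0.10 and 0.30 ± 0.09). Transcripts of EGR1 and SPRY4, both known to be induced by ERK, lay in opposite directions at E62 under every scaling tried. The part of ERK signalling in either change was not tested.

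Among 13 other bZIP factors 7 were higher and 1 lower at E41, and 5 higher and 1 lower at E62, with medians of 0.68 and 0.43. With library size alone 10 were higher and 0 lower at E41, and 11 and 1 at E62. For these factors and the chaperones below, the shares over all tested genes with TMM scaling were 18.5% higher and 20.8% lower at E41. At E62 they were 21% and 26.2%. With library size alone, 7850 of the 17020 tested genes were called at E41 (73.6% of those higher) and 8873 at E62 (69.4% of those higher). MAF rose at both stages (1.39 ± 0.09 and 1.29 ± 0.09), as did CEBPD (1.30 ± 0.19 and 0.66 ± 0.19) and BATF (2.04 ± 0.50 and 2.21 ± 0.44). NFIL3 fell at E41 (-0.58 ± 0.14, not called with library size alone) and MAFG fell at E62 (-1.04 ± 0.21). More heat shock and chaperone genes fell than rose. Of 18 tested, 1 was higher and 11 lower at E41, and 0 higher and 13 lower at E62, with medians of -0.62 and -0.65. With library size alone 3 were higher and 8 lower at E41, and 2 and 9 at E62. HSPE1 (-1.47 ± 0.13 and -0.72 ± 0.12), HSPD1 (-1.10 ± 0.11 and -0.69 ± 0.11) and HSPA9 (-0.88 ± 0.10 and -0.93 ± 0.10), all mitochondrial chaperones, fell at both stages. HSPB1, abundant in muscle, fell at E62 (-1.66 ± 0.11) and stood at 0.18 ± 0.10 at E41. HSPA6, a strictly inducible chaperone, was the 1 that rose at E41 with TMM scaling (1.46 ± 0.28).

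**Figure D5:**
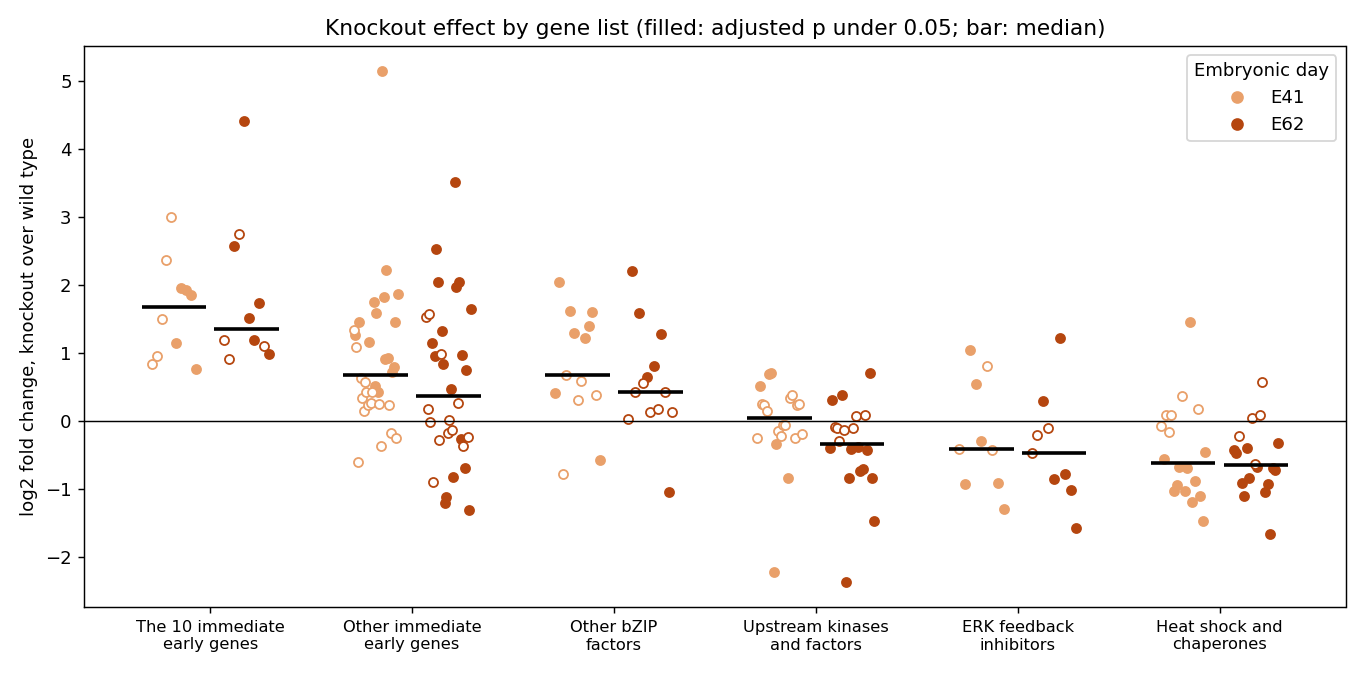
Log2 fold change of knockout over wild type for each tested gene of 6 lists at E41 (light) and E62 (dark), filled where the adjusted p was under 0.05, with a bar at the list's median. The 10 early genes lie wholly above 0, with medians of 1.68 and 1.35, the upstream kinases and factors centre on 0.05 and -0.34, and the chaperones lie mostly below 0.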

How the data were processed

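Limb muscle of 8 pig embryo samples was profiled by RNA sequencing. The labels' protocols name 2 kits for the libraries, TruSeq Stranded mRNA or TruSeq RNA. Whether counting used strand is not given in the sources used here, so antisense reads cannot be told apart. The authors deposited estimated counts (expected counts) per gene, whole numbers that are not normalized. The submitters' processing notes list the tools DESeq2 and kallisto and, as builds, susScr11 and Sscrofa11.1, with neither roles nor versions. Estimated counts can divide reads among paralogs such as FOS and FOSB. Columns were matched to samples by library name, and symbols were found for 15527 of 22516 gene identifiers (69.0%). Gene positions come from RefSeq for Sscrofa11.1, matched by symbol.

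Counts were rounded, filtered with filterByExpr (minimum count 10), TMM-scaled and tested in edgeR 4.0.16 under R 4.3.3. All 8 libraries entered 1 robust quasi-likelihood fit with a mean for each group, leaving 4 residual degrees of freedom. The two-sided F test was adjusted by Benjamini-Hochberg over 17020 genes at 0.05. Standard errors were derived as |log2 change| divided by √F. Replicate libraries differed beyond counting error (chi-square over its degrees of freedom 33.7 to 74.0), so they were not repeat sequencing of 1 library. This cannot show that they came from separate embryos. Each library was counted as 1 sample, as the titles call them biological replicates. The genes and lists were chosen with earlier results of these data known. All 10 genes were described; from the other lists, up to 4 genes with the smallest p in each genotype comparison, up to 2 called against the majority, and other members picked after their values were seen. Genes of similar pattern are the 6 with the highest Pearson's r to the mean of the centred log2(CPM + 0.5) of the 10, at a mean of at least 2 CPM. The alternatives were DESeq2 1.42.0, limma-voom (limma 3.58.1), relative log expression (RLE) factors, library size alone, TMM without muscle genes, no filter, at least 1 CPM in 2 libraries, a replicate block, a fit on the groups compared alone, and each library left out. The 14 at E41 also include a replicate block with the numbers of wild-type E41 crossed, chosen after seeing the data. In a test on simulated data for knockout against wild type at E41 (16682 genes), 37 of 50 genes changed 2-fold were recovered and 47 of 50 changed 4-fold, with 16 calls among unchanged genes. Promoter and protein sequences were not used here.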

Additional observations from a re-analysis of the deposited data

How the results depend on the processing

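In the genotype comparisons all 10 genes stayed higher in the knockout in every alternative run. Over all tested genes DESeq2 called 40.2% at E41 and 48.5% at E62, where the main test called 39.2% and 47.2%. The count of 5 called at E41 was 9 with DESeq2 and 3 to 7 with a library left out (3 without wild-type replicate 1, wild-type replicate 2 or knockout replicate 2). The count of 6 at E62 was 5 to 9 in the other settings and 4 to 6 with a library left out (4 without wild-type replicate 1 or knockout replicate 2). The count of 1 from E41 to E62 in wild type was 3 with DESeq2, library size alone, the 1 CPM filter, the groups compared alone and the replicate block, 2 with limma-voom and RLE factors, and 1 to 2 with a library left out. The count of 0 in the knockout was 1 with DESeq2, 2 with limma-voom and 0 to 3 with a library left out. The count of 0 for the difference between stages was 0 to 2 with a library left out.

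Directions turned only for changes that the main test did not call. In the knockout from E41 to E62, IER2 was 0.0097 with DESeq2, 0.0097 with RLE factors, 0.018 with library size alone, 0.033 with the 1 CPM filter and 0.016 with the groups compared alone. In wild type FOS was -0.33 with limma-voom, and FOS and FOSB were -0.22 and -0.057 under the replicate block. The difference between stages of DUSP1 was 0.034 with limma-voom and 0.045 under the replicate block. With a library left out, the difference between stages ran from -0.43 to 2.13 in FOS, -0.52 to 0.24 in JUN, -0.28 to 1.39 in ATF3, -0.41 to 0.43 in DUSP1 and -0.11 to 0.56 in KLF4. From E41 to E62 in wild type it ran from -1.55 to 1.01 in FOS, -0.32 to 0.61 in FOSB, -0.42 to 0.19 in EGR1 and -0.12 to 0.55 in KLF4, and in the knockout from -0.19 to 2.04 in FOS and -0.22 to 0.12 in IER2. The causes were not tested.

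Replicate numbers are not said to mark shared animals, and the replicate differences of wild-type and knockout E41 correlated at -0.34 over 13168 genes. The replicate block called 6 at E41 and 8 at E62, and with the numbers of wild-type E41 crossed, chosen after seeing the data, 7 at E41. Over all genes, calls fell from 6678 to 3927 and 4036 at E41 without knockout replicate 1 and 2, and the difference between stages from 4553 to 2499 and 2685. From E41 to E62 in the knockout, 5126 became 1906, 2245 and 2970 without knockout E41 replicate 1, E41 replicate 2 and E62 replicate 2, and in wild type 6782 became 4491 without E62 replicate 2. With library size alone 73.6% of calls were higher at E41 and 69.4% at E62, against 47.1% and 44.5%. The difference between stages uses all 4 groups, so it was not refitted on the groups compared. Where a library was left out, the lone one of its group was assumed to vary like the other groups. Counting intervals cover counting error only.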

Other observations

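The ratio of FOSB to FOS ran over a wider range between libraries than that of JUNB to JUN. For every 100 counts of FOS wild type had 10.7 and 5.42 counts of FOSB at E41 and 18.5 and 5.53 at E62, not corrected for transcript length. The knockout had 5.21 and 13.6 at E41 and 22.3 and 24.9 at E62. For every 100 counts of JUN wild type had 4.99 and 4.28 counts of JUNB at E41 and 5.06 and 7.82 at E62, and the knockout 4.53 and 4.41 at E41 and 3.49 and 4.95 at E62. The share of FOSB was highest in the knockout E62 libraries, followed by wild-type E62 replicate 1, whose FOS was the lowest of the 8 libraries.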
